A study of Mus musculus with 9 samples.

Results

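Transcripts of 10 genes of the Notch pathway were followed through the months after irradiation of the mouse submandibular gland: the receptors Notch1, Notch2 and Notch3, the ligands Jag1, Jag2 and Dll4, and the target genes Hes1, Hey1, Heyl and Nrarp. They were selected on the deposited counts of Hes1, which were low at 60 days, as the pathway's genes around that low, so every contrast that holds the 60-day libraries is a description for these genes, and its values support nothing. All 10 were found by symbol among the 54532 gene rows of the count table, and all 10 were among the 15224 genes that passed the filter on low counts. The submandibular gland is a major salivary gland of mucous and serous acini, ducts and myoepithelial cells. All mice carried the WT genotype and had received 10 Gy of radiation, and the groups were 3 samples taken at 30 days, 3 at 60 days and 3 at 90 days after it. The RNA was taken from 4 tissue sections per gland, cut at 50 µm. Age, sex, harvest hour and preparation batch are not in the labels, which also do not say that the 3 samples of a group came from separate animals, so the p-values measure the spread between these samples, which may be technical. The labels also name glands that were not irradiated, which are not analysed here. All values below thus come from irradiated glands, and days since irradiation cannot be told apart from age.

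Notch receptors are membrane proteins that are cut when a Jagged or Delta-like ligand on a neighbouring cell binds them. The freed intracellular domain enters the nucleus and joins the DNA-binding protein Rbpj and a Mastermind coactivator, and together they switch on target genes, most of them repressors of the Hes and Hey families. In salivary and other branching glands the pathway is known for its part in choosing between acinar and duct fates, and in blood vessels Dll4, Jag1, Notch3, Hey1 and Heyl mark arterial endothelium and the smooth muscle around it.

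The reference table of RefSeq promoters (GRCm38.p6, 250 bases before to 50 after each start) held 7 of the 10 genes, and did not hold Hes1, Hey1 or Heyl. Among the 3 receptors, Notch1 was called between 30 and 90 days and the others were not. The parts shown are those of the 3 receptors and of Nrarp, the target gene with an entry. These 4 parts lie before the RefSeq start and outside annotated exons. Each is written 5′ to 3′ on the strand of its gene, and capitals mark the letters of an E-box (CACGTG) or an N-box (CACNAG), the element that Hes proteins are known to bind, on either strand.
Notch1, chr2:26503825-26504072, minus strand, 248 bases: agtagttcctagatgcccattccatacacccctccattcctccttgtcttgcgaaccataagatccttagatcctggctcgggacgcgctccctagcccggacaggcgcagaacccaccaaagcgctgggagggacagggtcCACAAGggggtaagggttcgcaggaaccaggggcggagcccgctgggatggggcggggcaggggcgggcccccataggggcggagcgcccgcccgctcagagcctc
Notch2, chr3:98013288-98013526, plus strand, 239 bases: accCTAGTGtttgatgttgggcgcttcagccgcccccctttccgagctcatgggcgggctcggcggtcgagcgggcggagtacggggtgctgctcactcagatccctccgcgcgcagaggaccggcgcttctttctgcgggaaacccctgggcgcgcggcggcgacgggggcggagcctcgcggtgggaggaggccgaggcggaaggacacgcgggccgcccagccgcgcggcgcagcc
Notch3, chr17:32166891-32167140, minus strand, 250 bases: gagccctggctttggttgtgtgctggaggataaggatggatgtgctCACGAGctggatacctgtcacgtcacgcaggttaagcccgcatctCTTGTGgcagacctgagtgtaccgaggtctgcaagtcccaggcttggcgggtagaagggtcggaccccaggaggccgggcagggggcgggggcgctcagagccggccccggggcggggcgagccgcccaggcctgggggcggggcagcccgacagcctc
Nrarp, chr2:25180508-25180757, plus strand, 250 bases: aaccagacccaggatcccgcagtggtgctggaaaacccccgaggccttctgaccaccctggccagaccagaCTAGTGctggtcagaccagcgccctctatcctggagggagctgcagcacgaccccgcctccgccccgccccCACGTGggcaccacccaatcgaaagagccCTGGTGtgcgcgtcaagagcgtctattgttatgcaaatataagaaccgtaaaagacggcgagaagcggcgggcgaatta
An N-box was present in 5 of the 7 windows (Notch1, Notch2, Notch3, Nrarp and Dll4), beside 42.48% of all 32851 promoter windows of 300 bases. The E-box was found in 1 of the 7, that of Nrarp at position -108 from the start, beside 7.15% of all windows. The core of the Rbpj element (TGGGAA) and the TATA box (TATAAA) were in 0 of the 7 windows, beside 25.56% and 13.62% of all windows. The windows were searched on both strands, and in the windows shown no capitals are shared between an E-box and an N-box. The RefSeq start of Notch1 used here lies inside the longer span that GENCODE gives the gene.

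Library totals were 16541396 to 17179500 counts at 30 days and 20410818 to 26065856 at 60 and 90 days, so depth differed between 30 days and the later times. A count of 3 was worth 0.101 to 0.213 CPM, where CPM is the count of a gene relative to its library's total after scaling by trimmed means of M-values (TMM). The 10 most abundant genes took 51.3% to 66.5% of the counts of a library, and mitochondrial genes took 1.54% to 2.37%. Of the 9 acinar markers listed all 9 were tested, with a summed level of 272638 to 534306 CPM, most of it from Mucl2. No marker listed for any cell type was at 0 in every library.

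Levels of different genes were compared as CPM per kilobase of exon, averaged over the 9 libraries. Hes1 was the most abundant of the set at 14.4 ± 3.43 CPM per kilobase (SD, n = 9), above 90.2% of the genes tested. Next came Notch2 at 2.79 ± 0.340, Jag1 at 2.61 ± 0.424, Notch3 at 2.50 ± 0.398, Notch1 at 2.30 ± 0.441 and Jag2 at 2.23 ± 0.398, neighbours that did not differ beyond their spread. Hey1, at 0.791 ± 0.292 CPM per kilobase, lay below these 5 genes and above the last 3. Those were Nrarp at 0.354 ± 0.114, Heyl at 0.334 ± 0.108 and Dll4 at 0.301 ± 0.119, and they too lay within each other's spread. The level of Nrarp is uncertain, since an antisense gene covers 79.4% of its exon bases and the use of strand in counting is not given. The raw counts per library were 13 to 34 for Dll4, 11 to 35 for Nrarp, 14 to 78 for Heyl and 15 to 111 for Hey1, against 419 to 1116 for Hes1 and 524 to 861 for Notch1, so values of the first 4 carry the larger counting error.

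**Figure D1:**
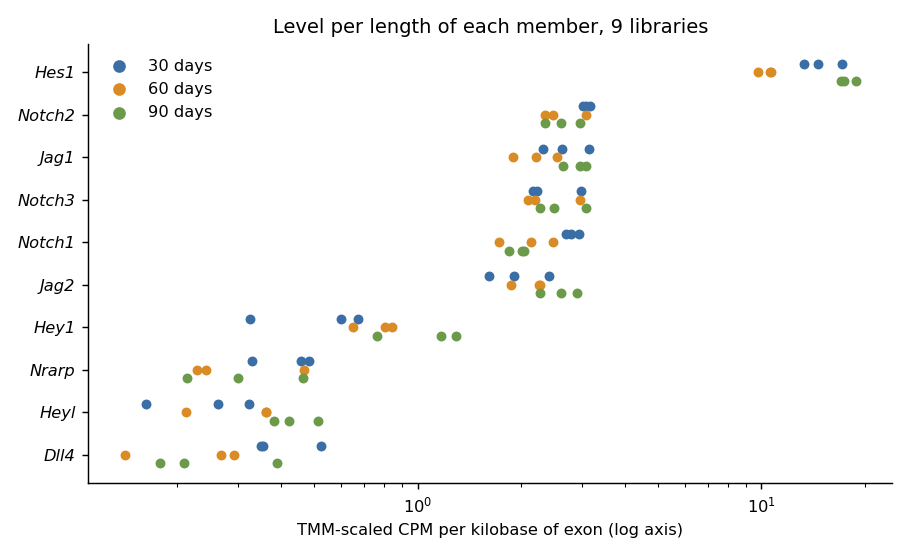
Level of each of the 10 genes in CPM per kilobase of exon on a log axis, with 1 point per library coloured by days after irradiation. Hes1 stands apart on the right at a mean of 14.4, 5 genes lie between means of 2.23 and 2.79, and Nrarp, Heyl and Dll4 lie at the left.

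Notch1 fell between 30 and 90 days, and it was the only gene of the 10 whose change passed the test. Notch1 encodes a receptor of the family (chromosome 2, 26457903 to 26516663, minus strand, in GRCm38, with 14232 bases of annotated exon). Its levels were 39.7, 41.9 and 38.5 CPM in the 30-day libraries, 24.6, 30.4 and 35.2 at 60 days, and 29.0, 28.7 and 26.3 at 90 days. Every 30-day library lay above every later library, and the 90-day libraries lay within the range of the 60-day ones. The means were 40.05 ± 1.71 CPM (SD, n = 3) at 30 days and 28.01 ± 1.49 at 90 days, a log2 fold change of -0.51 ± 0.12 (SE) and an adjusted p of 0.0214 by edgeR's quasi-likelihood test with Benjamini-Hochberg adjustment over all genes tested. This was 1 of the 10 genes called at an adjusted p under 0.05, beside 3.57% of the 15224 genes tested, and 1 of 10 called lower, beside 1.77%. The call rests on the libraries and the scaling: it was lost when 30-day replicate 1, 30-day replicate 2, 90-day replicate 2 or 90-day replicate 3 was left out (adjusted p 0.0730, 0.0934, 0.0712 and 0.104). With scaling by library totals alone, where the median of all genes lay at 0.24, the value was -0.29 with an adjusted p of 0.388.

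Notch2, the paralogue of Notch1 on chromosome 3 (98013527 to 98150361, plus strand), showed a smaller difference in the same direction. Its libraries read 34.2, 32.6 and 33.4 CPM at 30 days, 25.3, 26.8 and 33.3 at 60 days, and 32.1, 28.3 and 25.3 at 90 days. All 90-day libraries lay below all 30-day libraries, but the log2 fold change of -0.22 ± 0.12 had an adjusted p of 0.375 (edgeR). With scaling by library totals alone its value was 0.0095. Notch3, known from vascular smooth muscle and pericytes (chromosome 17, 32120820 to 32166852, minus strand), gave 17.6, 17.95 and 24.1 CPM at 30 days, 17.01, 17.8 and 23.9 at 60 days, and 20.2, 24.9 and 18.3 at 90 days. Its 3 groups overlapped, and its log2 fold change from 30 to 90 days was 0.09 ± 0.16 (edgeR, adjusted p = 0.850). The antisense gene 0610009E02Rik overlaps 7.5% of the Notch1 exon bases and had 179 counts in all, beside 6221 for Notch1. The antisense gene Gm17276 overlaps 6.03% of the Notch3 exon bases and had 263 counts, beside 4007 for Notch3. Since the use of strand in counting is not given in the sources used here, reads of such pairs cannot be told apart. Gm42820, on the same strand as Notch2, overlaps 5.02% of the Notch2 exon bases and had 11 counts, beside 5849 for Notch2. Strand cannot separate the reads of that pair.

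The receptors were also compared within each library as ratios of counts per exon kilobase, which do not depend on library scaling. The ratio of Notch1 to Notch2 was 0.880, 0.973 and 0.874 at 30 days, 0.736, 0.860 and 0.801 at 60 days, and 0.686, 0.770 and 0.786 at 90 days. Every later library lay below every 30-day library in this ratio. The ratio of Notch1 to Notch3 was 1.28, 1.33 and 0.909 at 30 days, 0.822, 0.969 and 0.835 at 60 days, and 0.818, 0.655 and 0.816 at 90 days. Thus Notch1 was above Notch3 per kilobase in 2 of the 3 libraries at 30 days and below it in all 3 at 90 days. For both ratios the 90-day and 30-day libraries did not overlap, with an exact two-sided permutation p of 0.1, the smallest that 3 libraries against 3 allow. The ratio of Notch2 to Notch3 overlapped between these times, at 1.29 ± 0.220 and 1.03 ± 0.171 (SD, n = 3 each, exact permutation p = 0.2). In all, 11 such sums and ratios were computed, and the smallest p adjusted over them was 0.183, so no ratio passed a threshold of 0.05 here.

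None of the 3 ligands passed the test between 30 and 90 days. Jag1 (chromosome 2, 137081456 to 137116644, minus strand), a ligand found on many epithelial and vascular cells, gave 13.5, 15.3 and 18.4 CPM at 30 days, 12.9, 14.8 and 11.01 at 60 days, and 15.4, 18.05 and 17.3 at 90 days. The 60-day libraries all lay below the 90-day ones, and 1 of them lay above a 30-day library. Its log2 fold change from 30 to 90 days was 0.10 ± 0.15 (edgeR, adjusted p = 0.806). Jag2 (chromosome 12, 112907819 to 112929776, minus strand), its paralogue, gave 11.3, 13.3 and 16.8 CPM at 30 days, 13.0, 15.7 and 15.8 at 60 days, and 15.8, 20.3 and 18.2 at 90 days. The 30-day and 90-day ranges overlapped, with a log2 fold change of 0.39 ± 0.15 and an adjusted p of 0.189 (edgeR). The ratio of Jag2 to Jag1 per exon kilobase was 0.696, 0.723 and 0.761 at 30 days, 0.845, 0.890 and 1.198 at 60 days, and 0.857, 0.942 and 0.880 at 90 days. Every later library had a higher ratio than every 30-day library (90 against 30 days, exact two-sided permutation p = 0.1, adjusted 0.183 over the 11 sums and ratios), and Jag1 remained the more abundant of the pair per kilobase in 8 of the 9 libraries.

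Dll4, the ligand of sprouting and arterial endothelium (chromosome 2, 119325784 to 119335962, plus strand), was low throughout. It gave 1.35, 1.37 and 2.01 CPM at 30 days, 1.04, 1.13 and 0.542 at 60 days, and 0.809, 0.687 and 1.51 at 90 days. The 60-day libraries lay below the 30-day ones, while 1 library at 90 days overlapped them. Between 30 and 90 days the log2 fold change was -0.68 ± 0.43 with an adjusted p of 0.464 (edgeR). The antisense gene Gm14207 overlaps 5.56% of the Dll4 exon bases and had 25 counts, beside 212 for Dll4 over the 9 libraries. Reads of this pair cannot be told apart either, as the use of strand is not given.

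**Figure D2:**
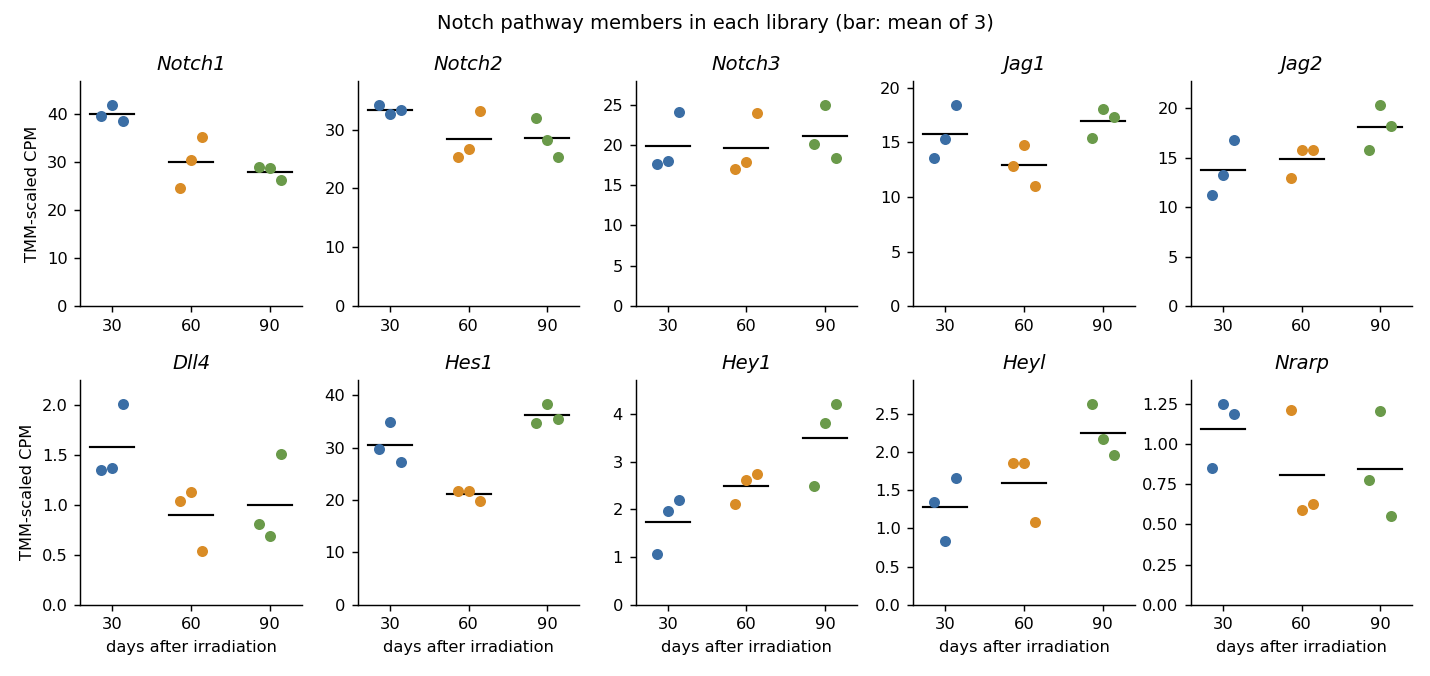
TMM-scaled CPM of each of the 10 genes against days after irradiation, with 1 point per library and a bar at the mean of 3. Hes1 is lowest in all 3 libraries at 60 days, Notch1 is highest in all 3 libraries at 30 days, and Hey1 and Heyl have their highest means at 90 days.

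Among the target genes, Hey1 and Heyl had their highest means at 90 days, Hes1 had its lowest level at 60 days, and Nrarp had no clear order. Hes1 encodes the repressor that is the best known direct target of Notch (chromosome 16, 30064384 to 30067796, plus strand). Its libraries read 29.7, 34.9 and 27.2 CPM at 30 days, 21.6, 21.7 and 19.9 at 60 days, and 34.7, 38.4 and 35.4 at 90 days. All 60-day libraries lay below the other 6, and the highest 30-day library lay just above the lowest 90-day one. From 30 to 90 days the log2 fold change of Hes1 was 0.24 ± 0.11 (edgeR, adjusted p = 0.287).

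Hey1, a target known from endothelium and smooth muscle (chromosome 3, 8663359 to 8667256, minus strand), gave 1.06, 1.96 and 2.19 CPM at 30 days, 2.12, 2.62 and 2.75 at 60 days, and 2.49, 3.82 and 4.22 at 90 days. The lowest 90-day library lay above the highest 30-day library. Hey1 averaged 1.74 ± 0.596 CPM at 30 days (n = 3, SD) and 3.51 ± 0.901 CPM at 90 days, and the log2 fold change of 0.99 ± 0.31 had an adjusted p of 0.0857 (edgeR), short of the threshold. It passed the threshold under 3 of the 17 other settings, among them when genes with low counts were kept (adjusted p 0.0426) and when 90-day replicate 1 was left out (log2 fold change 1.18, adjusted p 0.0482). Under the other 14 it was not called. With 1 library left out, its log2 fold change went down to 0.75 and its adjusted p up to 0.357 (edgeR). Heyl, a related target of mural cells (chromosome 4, 123233556 to 123249875, plus strand), gave 1.35, 0.832 and 1.66 CPM at 30 days, 1.86, 1.85 and 1.08 at 60 days, and 2.63, 2.17 and 1.96 at 90 days. Its 90-day libraries were also all above its 30-day libraries, with a log2 fold change of 0.82 ± 0.35 and an adjusted p of 0.242 (edgeR). Nrarp, which encodes a small ankyrin-repeat protein that limits Notch signalling (chromosome 2, 25180758 to 25183339, plus strand), gave 0.851, 1.25 and 1.18 CPM at 30 days, 1.21, 0.588 and 0.626 at 60 days, and 0.775, 1.203 and 0.552 at 90 days. The 3 groups of Nrarp overlapped, and its log2 fold change from 30 to 90 days was -0.36 ± 0.46 (edgeR, adjusted p = 0.771). The antisense gene Gm38287 covers 79.4% of the Nrarp exon bases and had 0 counts, beside 178 for Nrarp over the 9 libraries. Since the use of strand in counting is not given, the 0 does not show that Nrarp reads in the shared bases were counted.

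Across the set, 6 genes were higher and 4 lower at 90 than at 30 days, with a median log2 fold change of 0.09, beside 0.01 over all genes tested. With scaling by library totals alone, where the median of all genes was 0.24, 7 were higher and the median of the set was 0.31. The 30-day and 90-day libraries did not overlap for 4 of the 10 genes (Hey1 and Heyl higher, Notch1 and Notch2 lower), beside 23.2% of all genes. Summed CPM per kilobase of the 3 receptors was 8.37 ± 0.361 (SD, n = 3) at 30 days and 7.23 ± 0.671 at 90 days, with no overlap (exact two-sided permutation p = 0.1), but with scaling by library totals alone it was 7.896 ± 1.14 and 7.997 ± 1.49, with overlap. The 4 targets summed to 16.2 ± 1.90 and 19.6 ± 1.18, also with no overlap (exact permutation p = 0.1). Hes1 made up 87.8% to 94.1% of the target sum in every library, so this sum follows Hes1. The 3 ligands summed to 5.09 ± 0.915 and 5.76 ± 0.568, with overlap (exact permutation p = 0.3).

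The ratio of Hes1 to Notch1 per exon kilobase was 5.23, 5.82 and 4.93 at 30 days, 6.14, 4.98 and 3.95 at 60 days, and 8.34, 9.34 and 9.41 at 90 days. The 30-day and 60-day libraries overlapped in this ratio, and all 90-day libraries lay above both. The mean ratio was 5.32 ± 0.453 at 30 days (n = 3, SD) and 9.03 ± 0.598 at 90 days (exact two-sided permutation p = 0.1, adjusted 0.183 over the 11 sums and ratios).

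**Figure D3:**
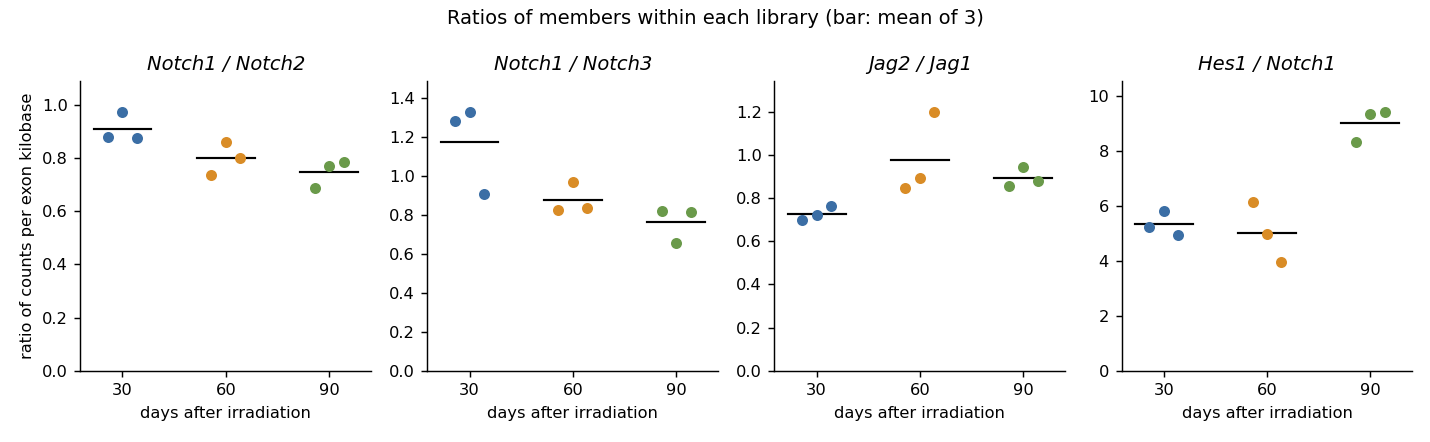
Ratios of counts per exon kilobase within each library against days after irradiation, with 1 point per library and a bar at the mean of 3. Notch1 to Notch2 and Jag2 to Jag1 separate 30 days from the later times, and Hes1 to Notch1 separates 90 days, at 8.34 to 9.41, from the earlier times.

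At 60 days 9 of the 10 genes lay below the mean of 30 and 90 days on the log2 scale, with a median of -0.14 beside 0.01 over all genes, and Hey1, at 0.01, was the exception, while with scaling by library totals alone all 10 lay below. Each of the following is a difference of the 60-day mean from the mean of the other times, on the log2 scale with its SE, and is the quantity around which the genes were chosen. Hes1 stood at -0.66 ± 0.10, Dll4 at -0.47 ± 0.39, Jag1 at -0.34 ± 0.13 and Nrarp at -0.26 ± 0.40. The other 6 lay between -0.16 (Notch1) and 0.01 (Hey1). In this contrast 1 of the 10 genes, Hes1, was past an adjusted p of 0.05, beside 0.256% of all genes, and 1 of the 10, again Hes1, had all 3 libraries at 60 days lowest, beside 1.90% of all genes. These counts follow from the choice of genes and nothing is read from them. The difference for Hes1 lay between -0.73 and -0.60 under each of the 17 other settings tried. These settings reuse the libraries on which the genes were chosen, so this range too is only a description.

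The steps on either side of 60 days differed between the genes. Both steps share the 60-day libraries. Hes1 was lower by a log2 fold change of -0.54 ± 0.12 from 30 to 60 days and higher by 0.78 ± 0.11 from 60 to 90 days, the values on which the genes were selected. It was the 1 gene of the 10 past the threshold in each step, beside 1.56% and 0.256% of all genes, and as the choice of genes used both steps nothing is read from this. Notch1 stood at -0.41 ± 0.12 in the earlier step and -0.10 ± 0.12 in the later one, and its 60-day mean of 30.1 ± 5.29 CPM (SD, n = 3) lay within its spread of the 90-day mean. Jag1 stood at -0.29 ± 0.15 and then 0.39 ± 0.15. Dll4 stood at -0.81 ± 0.44 and then 0.13 ± 0.44. Hey1 stood at 0.51 ± 0.32 and then 0.48 ± 0.29, and Heyl at 0.32 ± 0.36 and then 0.50 ± 0.33. Notch2 stood at -0.23 ± 0.12 and then 0.01 ± 0.12, Notch3 at -0.02 ± 0.16 and then 0.11 ± 0.16, Jag2 at 0.10 ± 0.16 and then 0.29 ± 0.15, and Nrarp at -0.44 ± 0.47 and then 0.08 ± 0.46. Hes1, Jag1, Dll4, Notch2, Notch3 and Nrarp were thus lower and then higher in sign, though several of these values lie within their SE of 0.

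**Figure D4:**
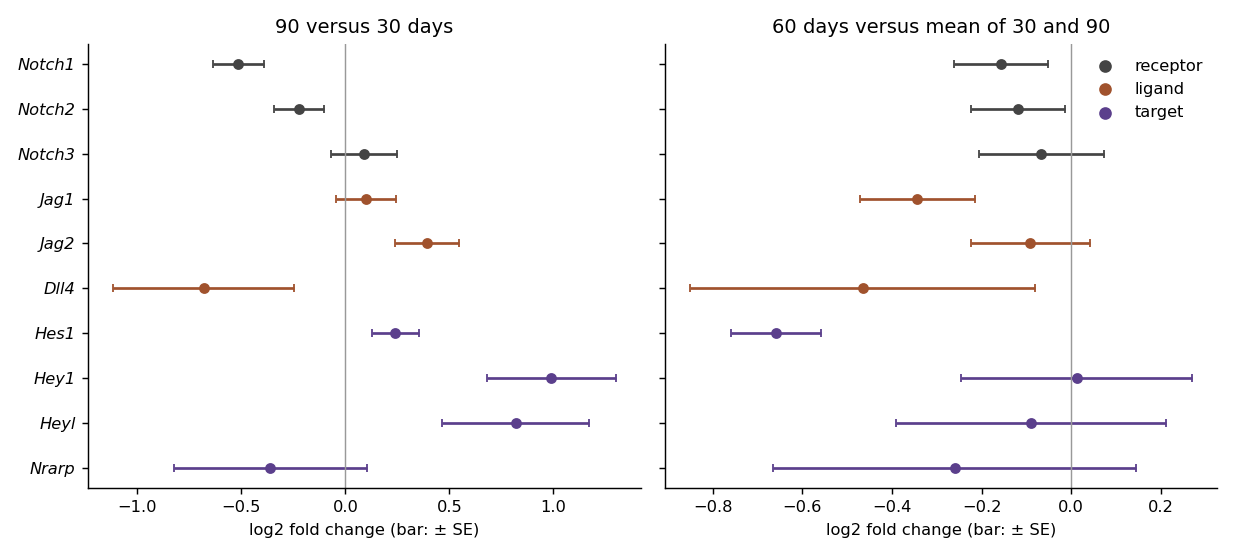
Log2 fold change of each of the 10 genes, 90 against 30 days at the left and 60 days against the mean of 30 and 90 at the right, with bars of 1 SE and colours for receptors, ligands and targets. At the left Notch1 lies at -0.51 and Hey1 at 0.99, and at the right, where the values chose the genes, Hes1 lies at -0.66.

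The profiles of the 10 genes were set beside each other by the root mean square difference of log2 CPM, each gene centred on its own mean over the 9 libraries, so that 0 is an identical profile. The closest pair was Notch1 and Notch2 at 0.144, then Notch3 and Jag2 at 0.190. Hes1 was closest to Jag1, at 0.239, beside its own root mean square deviation of 0.339 from its mean. Hes1 lay further from Notch1 (0.420) and from Hey1 (0.562). The points share their libraries and scaling, and these are descriptions with no test.

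By the same measure over all genes tested, the 5 profiles nearest to that of Hes1 were Spry1 (0.131), Rpl17-ps8 (0.134), Plxnd1 (0.149), Dapp1 (0.151) and Hilpda (0.151). Spry1, an inhibitor of receptor tyrosine kinase signalling, had means of 9.06, 6.91 and 10.3 CPM at 30, 60 and 90 days. Plxnd1, a semaphorin receptor of endothelium, had means of 11.6, 8.80 and 12.9 CPM, and Hilpda, a lipid droplet protein induced by hypoxia, had 6.34, 4.19 and 6.30 CPM. Rpl17-ps8 is a ribosomal protein pseudogene, for which reads of the parent gene cannot be told apart. Nearest to Notch1 were Nfic (0.0597), Pm20d1 (0.0805) and Enpp2 (0.0868). Nfic, a transcription factor of the nuclear factor I family, had means of 181 ± 1.36, 139 ± 23.5 and 129 ± 7.64 CPM (SD, n = 3 each). Nearest to Notch2 were Hectd4 (0.0503), Afdn (0.0513) and Fat1 (0.0624), and nearest to Notch3 were Klhl25 (0.0771), Colec12 (0.0923) and Itpripl2 (0.0960). Nearest to Hey1 were Sh3kbp1 (0.107), Igfals (0.150) and Postn (0.164), where Postn, a matrix protein of fibroblasts, had means of 53.6, 68.0 and 88.5 CPM. Nearest to Jag1 were Havcr2 (0.101), Tedc2 (0.117) and Pecam1 (0.119), the last an endothelial adhesion molecule. Nearest to Jag2 were Apobec3 (0.0871), Sparcl1 (0.0878) and Plxnb1 (0.0889). For the 3 genes with the lowest levels per kilobase the nearest profiles lay further away, at 0.172 for Nrarp (Gm15710, then Gm9843 and Galnt15), 0.197 for Heyl (Cyp2b10, then H2-T24 and AK157302) and 0.198 for Dll4 (A530072M11Rik, then Magef1 and Msl3l2).

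The rest of the pathway was read from 10 lists by role, with 106 genes listed, 95 tested and the 10 genes above not repeated. Between 30 and 90 days 2 of the 95 rose and 1 fell, beside 3.57% of all genes called in either direction, and the median log2 fold change was 0.12 beside 0.01 over all genes. With scaling by library totals alone 4 rose and 0 fell. The calls with TMM scaling lie near the share over all genes, so nothing is read from their number or from a shared role. Both genes that rose with that scaling are listed under receptor cleavage, the group of proteases that mature and cut Notch. Furin, the convertase that cuts the receptor on its way to the surface, was at 72.7, 78.6 and 77.7 CPM at 30 days, 100.01, 99.7 and 94.7 at 60 days, and 114, 111 and 98.5 at 90 days, every later library lying above every 30-day one. Its log2 fold change from 30 to 90 days was 0.50 ± 0.10 (edgeR, adjusted p = 0.00664), and the call held under each of the 17 other settings (adjusted p 6.97e-05 to 0.0455). Aph1c, a subunit of γ-secretase, the complex that frees the intracellular domain, had 9.498, 14.1 and 11.96 CPM at 30 days, 17.3, 16.96 and 16.5 at 60 days, and 18.5, 17.1 and 20.1 at 90 days. Its log2 fold change was 0.64 ± 0.14 (edgeR, adjusted p = 0.0157), a call lost without 30-day replicate 1 (adjusted p 0.111) or without 90-day replicate 3 (0.0808). Aph1b is a near copy of Aph1c, and how reads shared by the pair were counted is not given in the sources used here, so the value for Aph1c is uncertain.

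Of the 10 genes of receptor cleavage, all 10 tested, 10 were higher at 60 than at 30 days with a median log2 fold change of 0.20, and 8 were higher at 90 than at 30 days with a median of 0.24, of which Furin and Aph1c passed the test at 90 days. Over all genes tested, 49.6% and 52.1% were higher in these contrasts, with medians of -0.0025 and 0.01, and 3.57% were called from 30 to 90 days. With scaling by library totals alone 10 and 10 were higher, with medians of 0.24 and 0.46, beside 0.05 and 0.24 over all genes. Psenen, a small subunit of γ-secretase, was the most abundant of this list at 25.6 CPM per kilobase.

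Cdkn1a, a cell cycle inhibitor listed among other known targets and induced by p53, fell from 30 to 60 days, from 25.1, 19.7 and 25.0 CPM to 11.5, 10.7 and 11.7. The 90-day libraries were spread over 11.6, 24.8 and 15.2 CPM. Between 30 and 60 days the log2 fold change was -1.04 ± 0.23 (edgeR, adjusted p = 0.0412), a call lost under 10 of the 17 other settings, with adjusted p-values up to 0.218. In that step Cdkn1a was the 1 gene of the 95 that fell, beside 65 of all 15224 genes called lower and 1.56% called in either direction. From 60 to 90 days 1 of the 95 rose, Egfl7, and 0 fell, beside 14 of all 15224 genes called higher and 25 called lower (0.256% in either direction). Egfl7, a secreted endothelial protein known to bind Notch receptors, had 6.66, 6.72 and 7.28 CPM at 30 days, 5.09, 5.201 and 4.01 at 60 days, and 8.46, 10.3 and 8.53 at 90 days, lowest at 60 days in all 3 libraries. Its log2 fold change from 60 to 90 days was 0.94 ± 0.18 (edgeR, adjusted p = 0.0261), a call lost under 5 of the 17 settings, each of which left out 1 library.

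Bhlhe40, a repressor of the same superfamily as Hes and Hey that is known from the clock and from hypoxia, fell from 30 to 90 days. It had 136, 112 and 102 CPM at 30 days, 87.9, 90.9 and 87.7 at 60 days, and 89.9, 89.2 and 87.5 at 90 days. Between 30 and 90 days the log2 fold change was -0.39 ± 0.11 (edgeR, adjusted p = 0.0481), a call lost under 8 of the 17 settings and standing at -0.27 (adjusted p 0.288) without 30-day replicate 1 and at -0.15 (0.570) with scaling by library totals. In the contrast of 60 days with the mean of 30 and 90, edgeR called 0 of the 95 genes, with 4 higher and 8 lower at an unadjusted p under 0.05, DESeq2 called 2 and limma-voom called 0. Notch4, the endothelial receptor of the family, lay at 5.56 ± 1.01, 3.44 ± 0.560 and 5.50 ± 0.522 CPM (SD, n = 3 each) at 30, 60 and 90 days, with a difference of -0.68 ± 0.19 in that contrast and an adjusted p of 0.181 (edgeR).

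**Figure D5:**
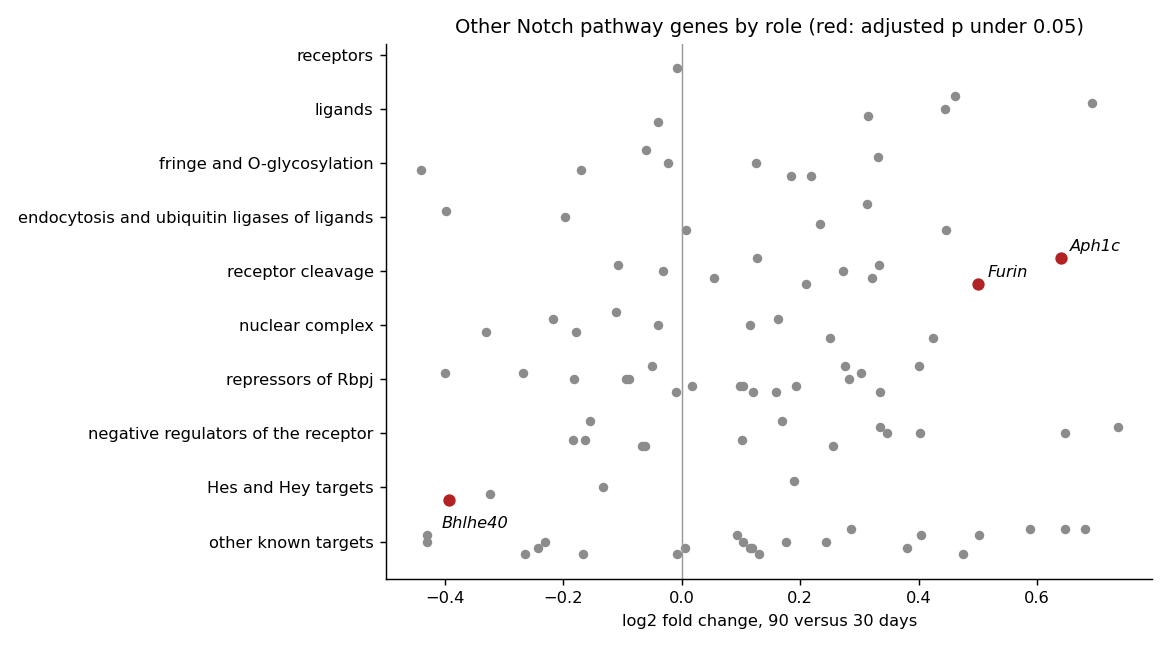
Log2 fold change from 30 to 90 days of each of the 95 other pathway genes tested, by role list, with genes at an adjusted p under 0.05 in red. Furin and Aph1c lie to the right at 0.50 and 0.64 and Bhlhe40 to the left at -0.39.

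No gene of the remaining lists was called in any of the 4 contrasts in the main edgeR fit of all 9 libraries, though some were called under other settings. The nuclear complex, 9 of 9 tested, had a median log2 fold change of -0.04 from 30 to 90 days, with Rbpj at 23.3 ± 1.30, 24.9 ± 2.36 and 22.7 ± 1.01 CPM (SD, n = 3 each) at 30, 60 and 90 days. Its most abundant members per kilobase were the acetyltransferases Kat2b at 13.9 and Kat2a at 7.47. Of the corepressors of Rbpj and their partners, 18 of 19 tested, 11 were higher and 7 lower at 90 than at 30 days, led in level by Aes at 80.1 and Ctbp1 at 29.7 CPM per kilobase. Fringe and O-glycosylation enzymes, 8 of 8 tested, divided into 4 higher and 4 lower, led by Rfng at 8.57 and Xxylt1 at 3.02 CPM per kilobase. Rfng, which adds sugar to the receptor, had 26.1 ± 1.76 CPM at 30 days and 19.3 ± 2.01 at 90 days (n = 3, SD), which is a log2 fold change of -0.44 ± 0.13 with an adjusted p of 0.0625 (edgeR). Rfng was called in this contrast under other settings, among them DESeq2 (adjusted p 0.0369) and edgeR without the filter on low counts (adjusted p 0.0355). The ubiquitin ligases of the ligands, 6 of 6 tested, were led by Mib1 at 6.67 and Mib2 at 4.72 CPM per kilobase. Negative regulators of the receptor other than Egfl7 had no call among 13 tested with it, led by Nedd4 at 31.0 and Dtx3 at 8.06. Of the further ligands 5 of 9 were tested, led by Dlk2 at 2.39 and Mfap2 at 1.02, and Notch4 stood at 0.5999. Among the other known targets, 23 of 24 tested, the most abundant were Acta2, smooth muscle actin, at 90.3 and Ccnd1 at 23.3.

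Of the further Hes and Hey genes and their relatives 4 of 9 passed the filter, with Bhlhe40 at 20.9 and Hes6 at 5.81 CPM per kilobase the most abundant. Over all 9 libraries together Hes2 had 3 counts, Hes3 had 1, Hes5 had 12, Hey2 had 40 and Helt had 0. The ligand genes Dll3, Dlk1, Dner and Cntn1 had 7, 56, 29 and 63 counts. Differences in these genes between the time points were not tested.

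In sections of a whole gland, fewer cells of a type and less RNA per cell cannot be told apart, so the levels of cell type markers are given beside these results. The summed level of 12 endothelial markers, all tested, was 130 to 144 CPM at 30 days, 116 to 123 at 60 days and 127 to 152 at 90 days. Its 60-day libraries were the lowest, as for Hes1, and 10 of the 12 markers lay below the mean of 30 and 90 days, with a median of -0.25 on the log2 scale, beside -0.66 for Hes1, and 0 of the 12 called (edgeR; 3 at an unadjusted p under 0.05). All 7 immune markers tested, of 10 listed, were likewise lower at 60 days, with a median of -0.32 and 0 called (edgeR; 1 at an unadjusted p under 0.05). Acinar markers lay the other way, with 8 of 9 above the mean of 30 and 90 days and a median of 0.59. The test called 2 of them higher at 60 days, beside 31 of all 15224 genes tested (edgeR). Bhlha15, a transcription factor of secretory cells, was higher by 0.63 ± 0.10 (edgeR, adjusted p = 0.00644). Amy1, an amylase gene, was higher by 0.61 ± 0.12 (edgeR, adjusted p = 0.0418). Scaled by library totals alone, 7 of the 9 were higher and 0 called. The call of Bhlha15 was also lost without 60-day replicate 2 (adjusted p 0.0708), and that of Amy1 was lost under 9 of the 17 other settings, with adjusted p-values up to 0.535. Medians in this contrast were -0.03 for duct, -0.07 for mural, -0.07 for fibroblast, 0.04 for basal and myoepithelial and -0.13 for nerve and Schwann markers, with 0 called in each by edgeR. Unadjusted p-values under 0.05 were reached by 3 of 10 duct, 0 of 8 mural, 1 of 8 fibroblast, 1 of 7 basal and myoepithelial and 1 of 6 nerve and Schwann markers. The sum of the 8 mural and smooth muscle markers tested, of 10 listed, was 129 to 163 CPM at 30 days, 159 to 174 at 60 days and 155 to 208 at 90 days. From 30 to 90 days 5 of the 8 were higher and 3 lower, with 0 called (edgeR). Mylk went from a mean of 52.0 to 72.2 CPM and Cnn1 from 40.1 to 51.6, while Rgs5, Kcnj8 and Abcc9 were lower. The median log2 fold change of the 8 was 0.33, beside 0.01 over all genes tested. With scaling by library totals alone, 7 of the 8 were higher and 1 was called (edgeR). Their median was then 0.56, beside 0.24 over all genes. Any part of mural cells in the values of Hey1 and Heyl, whose own rises did not pass the test, was not tested. The sum of the 7 basal and myoepithelial markers tested, of 8 listed and with Cnn1 also in the mural list, was 102 to 137, 139 to 149 and 141 to 218 CPM. All 7 of these markers were higher at 90 than at 30 days, beside 52.1% of all genes tested. Of the 7, 2 rose by the test, beside 275 of all 15224 genes (edgeR). Trp63, a transcription factor of basal cells, rose by 0.92 ± 0.21 on the log2 scale (edgeR, adjusted p = 0.0289). Actg2, a smooth muscle actin, rose by 1.14 ± 0.22 (edgeR, adjusted p = 0.00714). The call of Actg2 held under all 17 other settings. That of Trp63 was lost with limma-voom (adjusted p 0.0553), without 30-day replicate 1 or 2 (0.150 and 0.124), without 60-day replicate 2 (0.0530) and without 90-day replicate 2 or 3 (0.115 and 0.0808).

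Beside the lower Notch1, Aqp5, the water channel of acinar cells, fell by 0.57 ± 0.12 on the log2 scale from 30 to 90 days (edgeR, adjusted p = 0.0113) and Ano1, the acinar chloride channel, fell by 0.47 ± 0.11 (adjusted p = 0.0245), while Amy1 rose by 0.94 ± 0.15 (adjusted p = 0.00153). With scaling by library totals alone Aqp5 stood at -0.34 (adjusted p 0.208) and Ano1 at -0.25 (adjusted p 0.369). Both calls were also lost without 30-day replicate 1 (adjusted p 0.0629 and 0.123) and without 90-day replicate 2 (0.0721 and 0.159), and that of Ano1 without 30-day replicate 2 (0.0742) or 90-day replicate 1 (0.0581). The median of the 9 acinar markers was -0.42, with 3 higher and 6 lower. Their summed level was 393383 to 534306 CPM at 30 days and 272638 to 407215 at 90 days. Most of this sum was Mucl2, with means of 427725 CPM at 30 days and 318684 at 90 days and no call (edgeR, adjusted p = 0.447). The sum of the 10 duct markers was 18496 to 23168 CPM at 30 days, 26831 to 31156 at 60 days and 22871 to 27938 at 90 days. Most of it was Klk1, with means of 19201, 22446 and 19610 CPM at these times. Egf, a growth factor of granular duct cells, rose from 1325 ± 460 CPM (SD, n = 3) at 30 days to 5826 ± 941 at 60 days (edgeR, adjusted p = 0.00129) and stood at 5639 ± 1426 at 90 days, a log2 fold change of 2.09 ± 0.26 from 30 to 90 days (edgeR, adjusted p = 0.00077). It was the 1 of 10 duct markers called in that contrast, beside 3.57% of all genes tested. The part of these marker changes in the results for the Notch genes was not tested.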

How the data were processed

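The authors deposited raw read counts per gene, not normalized, for the 9 samples. Reads were handled with fastp, STAR, featureCounts and the mm10 build, per the submitters' processing notes, which give no versions, and the use of strand is not given in the sources used here. Each used column carries in its name the day and number of 1 sample, and 3 further columns match no sample and were not used. Samples were grouped by days after irradiation in their titles.

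Of 54532 gene rows, 27001 had at least 1 count and 15224 passed filterByExpr (minimum count 10). All 9 libraries were fitted together in edgeR 4.0.16 (R 4.3.3, TMM scaling, robust quasi-likelihood test, common biological coefficient of variation 0.150), with Benjamini-Hochberg adjustment over all 15224 genes and a threshold of 0.05. The SE is the log2 fold change over the root of its F statistic. CPM profiles used a prior count of 2. Positions and exon lengths came from GENCODE release M21 (GRCm38). DESeq2 1.42.0, limma-voom (limma 3.58.1), other scalings and filters and leaving out each library were tried as alternatives. The fits were tested on simulated data.

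The 10 genes, the pathway and marker lists and the tests were chosen with earlier results of these data known. For the 10, contrasts that hold the 60-day libraries were used by the choice of genes and serve as description, and 90 against 30 days is the contrast read as a test. Named are, besides the 10, the pathway genes called in any contrast, the 2 most abundant per kilobase of each list, and the 3 nearest profiles of each gene (5 for Hes1). Rbpj, the marker genes and the genes below the filter were named after their values were seen. Tle5 is Aes in the annotation. The values of 1 pathway gene are not reported here.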

Additional observations from a re-analysis of the deposited data

How the results depend on the processing

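Each result was recomputed under 8 other settings and with each of the 9 libraries left out. Of the 10 genes, 1 was called between 30 and 90 days. The number was 0 with scaling by library totals, 2 without the filter on low counts, 2 with the replicate number as a block (Notch1, and Hey1 at an adjusted p of 0.0439), and 0 to 2 without 1 library. Notch2 turned from -0.22 to 0.0095 with scaling by library totals, which moved the median of all genes by 0.24. The other pathway genes called from 30 to 60 days, 2 in number, became 0 with library totals, 5 with DESeq2, 1 with limma-voom, 6 without the filter, 1 with the replicate block, 0 with libraries thinned to the smallest total (chosen after seeing the data), and 0 to 1 without 1 library. From 60 to 90 days the 1 became 2 with library totals, 3 with DESeq2, 4 without the filter and 0 to 2 without 1 library. From 30 to 90 days the 3 became 6 with DESeq2, 9 without the filter, 5 with the replicate block and 1 to 5 without 1 library. In the contrast of 60 days with the others, 0 became 2 with DESeq2, 3 without the filter and 0 to 1 without 1 library. Over all genes the 238 called from 30 to 60 days became 90 with library totals, 369 with DESeq2, 459 without the filter and 73 to 244 without 1 library. The 39 from 60 to 90 days became 141 with DESeq2, 354 without the filter, 92 with the replicate block and 16 to 103 without 1 library. The 544 from 30 to 90 days became 860 with DESeq2, 1045 without the filter and 184 to 703 without 1 library, and with library totals the split of 275 higher and 269 lower became 406 and 34. From 30 to 60 days that scaling moved 173 and 65 to 79 and 11, and from 60 to 90 days 14 and 25 to 19 and 9. In the 60-day contrast 39 became 20 with library totals (31 and 8 became 12 and 8), 129 with DESeq2, 230 without the filter, 73 with the replicate block and 13 to 81 without 1 library. The cause of these moves was not tested. Of 9 pairs of samples that share a replicate number across time points, 1 had a correlation of deviations over 0.1 (-0.06 to 0.191), and 4 of 9 samples correlated best with their own number, so the samples were taken to share only a number. Genes with under 100 counts in a library, among them Dll4, Nrarp and Heyl, are limited by depth.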
